A study of Nothobranchius furzeri with 8 samples.

Results

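The miRNA rows mir-132 and mir-132b were followed in small RNA libraries of the killifish brain (Nothobranchius furzeri, an annual fish with a short life span; males) at 2 ages. They were taken by name from the deposited table of counts and are 2 of its 324 features, of which 235 are named miRNA families and 89 are predicted miRNAs. All fish were of the strain MZM-04/10p, kept without any treatment named in the labels, with 4 libraries at 6 weeks and 4 at 26 weeks. The libraries of each age carry the numbers I to IV. The titles of the older libraries hold the number 22, but their age label reads 26 weeks, and the label was used. Whether each library came from its own fish is not stated, so the p-values cover only the spread between these samples, and some of it may be technical.

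In mammals, miR-132 is transcribed when neurons are active, through the transcription factor CREB and growth factors such as BDNF. In rodent neurons it promotes the growth of dendrites and spines, in part by repressing p250GAP, a brake on Rac signalling. The mammalian locus also encodes miR-212, which has the same seed, the stretch near the 5′ end that pairs with targets. The deposited counts hold no row named mir-212, so it could not be analysed here. How the rows mir-132 and mir-132b differ in sequence, and how reads that match both were counted, is not given in the sources used here. The rows may share reads, so their sum and their proportion are given beside each of them.

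Totals ran from 2992917 to 4151620 counts at 6 weeks and from 3347810 to 5715409 at 26 weeks. The tissue label was checked against 6 neuronal families (mir-124, mir-128, mir-137, mir-138, mir-153 and mir-218), none of which was at 0 in any library. Their summed level was between 86283 and 93854 CPM at 6 weeks and between 86990 and 90638 CPM at 26 weeks. CPM here is the count relative to the library size, on the usual scale, after TMM scaling, which sets most features level between libraries. The liver family mir-122 was at most 25.5 CPM in any library, and the joint row mir-122a/mir-3591 at most 43.4 CPM.

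Both rows were abundant at both ages. By raw count, mir-132 ranked between 9 and 14 among the 324 features of a library and mir-132b between 21 and 24. With their counts added, the pair ranked between 7 and 11. Counts of mir-132 were 44072, 48887, 69471 and 45525 in the 6-week libraries I to IV and 67540, 123690, 126594 and 88084 in the 26-week libraries I to IV. Those of mir-132b were 14866, 16559, 22625 and 15877 at 6 weeks and 22346, 36558, 34546 and 27765 at 26 weeks. In every library mir-132 thus outnumbered mir-132b, by 2.87 to 3.66 times. Ligation favours some sequences over others, so this ratio is one of counts in these libraries.

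The comparison of the ages asked whether the pair changed in the older brain. Both rows were higher at 26 weeks. The level of mir-132 was 12657, 13771, 16432 and 13979 CPM in the 6-week libraries I to IV. It was 18129, 25124, 26795 and 22346 CPM in the 26-week libraries I to IV. The ages did not overlap, and the lowest older library, I, lay above the highest younger one, III. The mean level rose from 14210 ± 1591 to 23099 ± 3787 CPM (SD, n = 4 per age), a fitted 1.63-fold change.

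For mir-132b the 6-week libraries I to IV held 4269, 4664, 5351 and 4875 CPM. The 26-week libraries I to IV held 5998, 7426, 7312 and 7044 CPM. Here too the ages did not overlap, and the highest younger library was again III and the lowest older one again I. The mean level rose from 4790 ± 451 to 6945 ± 651 CPM (SD, n = 4 per age), a fitted 1.45-fold change. Between libraries of the same number, the log2 level of mir-132 rose by 0.52, 0.87, 0.71 and 0.68 for I to IV, and that of mir-132b by 0.49, 0.67, 0.45 and 0.53.

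**Figure D1:**
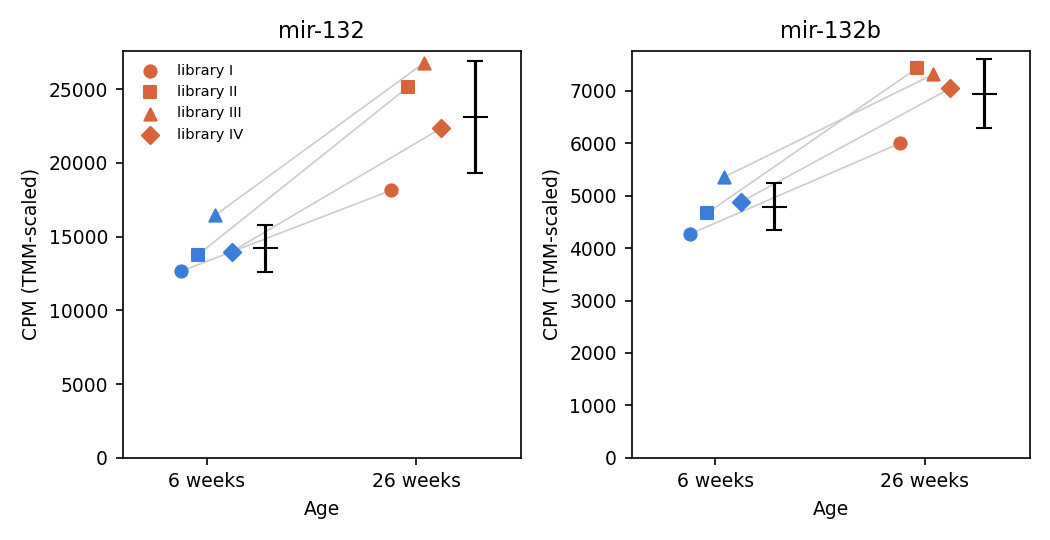
Level of mir-132 (left) and mir-132b (right) in TMM-scaled CPM, by age. Points are libraries, marker shapes give the library number, grey lines join libraries of the same number, and black bars show the mean ± SD of 4 libraries. All 4 older libraries lie above all 4 younger ones for both rows.

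In edgeR's quasi-likelihood test over 212 features, with Benjamini-Hochberg adjustment, the log2 fold change of mir-132 was 0.70 ± 0.14 (SE, adjusted p = 0.0126). That of mir-132b was 0.54 ± 0.12 (edgeR, Benjamini-Hochberg adjusted p = 0.0167). With the counts of both rows added into 1 feature and the scaling factors recomputed, the log2 fold change was 0.69 ± 0.13 (edgeR, Benjamini-Hochberg adjusted p = 0.00987). The summed feature went from 18791 ± 2168 to 30377 ± 4318 CPM (SD, n = 4 per age). As a background, 10.4% of all tested features were called higher at 26 weeks and 3.77% lower. The ages did not overlap in CPM, with the older libraries higher, in 14.2% of the tested features. Among the 22 features called higher, mir-132 ranked 18 and mir-132b ranked 22 by the size of the log2 change, but 4 and 7 by mean level. The change of the pair was thus small among the features called higher and its level high.

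**Figure D2:**
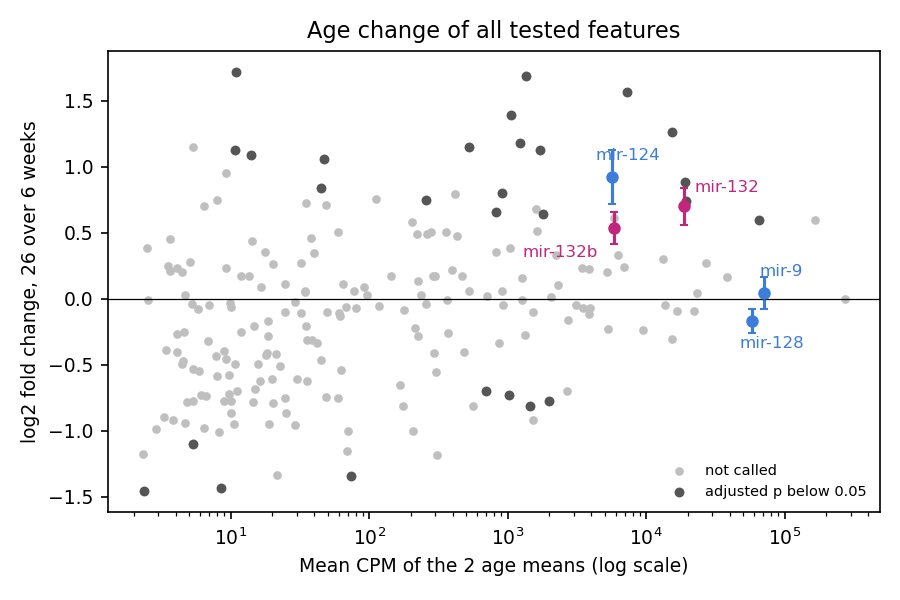
Log2 fold change from 6 to 26 weeks against mean CPM (log axis) for the 212 tested features. Dark points are features with an edgeR Benjamini-Hochberg adjusted p below 0.05, and bars on the named features are ± 1 SE. The rows mir-132 and mir-132b lie above 0 at high levels, and mir-124 lies above both on the vertical axis. The families mir-9 and mir-128 lie near or below 0.

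The size of the change depended on the scaling. TMM factors were 1.02 to 1.16 in the 6-week libraries and 0.861 to 1.11 in the 26-week libraries. With total counts alone the log2 change of mir-132 was 0.47 and that of mir-132b 0.31 (edgeR, Benjamini-Hochberg adjusted p = 0.00702 and 0.0288), while the median of all tested features moved from -0.06 to -0.29. With upper-quartile factors the median was -0.24 and neither row passed (log2 0.54 and 0.37; edgeR, Benjamini-Hochberg adjusted p = 0.0545 and 0.0961). Set against the median of all tested features under the same scaling, mir-132 stood 0.76 above it with TMM, 0.76 with total counts and 0.78 with upper-quartile factors. The row mir-132b stood 0.60, 0.60 and 0.61 above it. Scaling factors shift the log2 change of every feature by about the same amount, so these distances were nearly fixed in advance. They therefore say nothing about the lost calls. With the log2 of the total count added to the model, the distances were 0.31 for mir-132 and 0.27 for mir-132b.

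As a share of all counts, which uses no factor, mir-132 made up 1.47%, 1.503%, 1.67% and 1.47% of the 6-week libraries I to IV. Its share was 2.02%, 2.16%, 2.36% and 1.94% in the 26-week libraries I to IV. The means were 1.53 ± 0.0964% and 2.12 ± 0.186% (SD, n = 4 per age), 1.39 times as high at 26 weeks, with no overlap of the ages (exact two-sided permutation p = 0.0286, the lowest possible with 4 libraries an age). The share of mir-132b was 0.497%, 0.509%, 0.545% and 0.513% at 6 weeks and 0.667%, 0.640%, 0.645% and 0.611% at 26 weeks. Its means were 0.516 ± 0.0205% and 0.641 ± 0.0231% (SD, n = 4 per age), 1.24 times as high at 26 weeks, again with no overlap (exact two-sided permutation p = 0.0286). Neither p-value is adjusted, and how many of all features had no overlap on the scale of shares was not counted. With libraries paired by number, the exact sign-flip test gave p = 0.125 for the share of each row, the lowest possible with 4 pairs. Wilson 95% intervals of these shares were at most 0.0301 percentage points wide for mir-132 and 0.0174 for mir-132b. Together the pair went from 2.05% to 2.76% of all counts on average.

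Counting error was a small part of the spread. The coefficient of variation of the CPM of mir-132 was 11.2% at 6 weeks and 16.4% at 26 weeks, against 0.444% and 0.322% from counting alone. For mir-132b it was 9.41% and 9.38%, against 0.764% and 0.583%. Such intervals cover counting error only, since reads without molecular identifiers are not independent molecules.

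The level of the pair in CPM moved with the depth of the libraries. At each age the library with the lowest total, I, held the lowest CPM of both rows. The 6-week library with the highest total, III, held the highest CPM of its age for both rows, and at 26 weeks the deepest pair of libraries, II and III, held the highest. On the share scale this order did not hold at 26 weeks, where library IV was lowest for both rows and library I was highest for mir-132b. At 6 weeks the share of mir-132 was lowest in library IV, at 1.4723%, just below library I, at 1.4725%. The 26-week library I, with 3347810 counts, lay above the 6-week library III, with 4151620 counts, in CPM and in share for both rows. With the log2 of the total added to the model, the log2 change was 0.36 ± 0.10 for mir-132 and 0.32 ± 0.12 for mir-132b, and neither passed (edgeR, Benjamini-Hochberg adjusted p = 0.102 and 0.189). Without the 26-week libraries II and III, left out only after these values were known, libraries I and IV remained at 26 weeks. The changes were then 0.60 ± 0.16 and 0.54 ± 0.16 (SE) and again did not pass (edgeR, Benjamini-Hochberg adjusted p = 0.0814 and 0.0993). With all 8 libraries and no covariate they were 0.70 ± 0.14 and 0.54 ± 0.12. For mir-132b the change was thus about the same and its SE larger. Depth and age cannot be fully told apart in these libraries. Both libraries numbered I also stood apart in some other features. The level of mir-716 was 1563 CPM in the 6-week and 1187 CPM in the 26-week library I, against 153 to 258 CPM elsewhere. That of mir-158 was 866 and 390 CPM, against 47.2 to 97.7 CPM elsewhere. A planned fit left out both libraries numbered I, and each call of the pair stayed. The log2 change of mir-132 was then 0.73 ± 0.13 (SE, edgeR, Benjamini-Hochberg adjusted p = 0.00899). That of mir-132b was 0.53 ± 0.13 (edgeR, Benjamini-Hochberg adjusted p = 0.0228). Their summed feature changed by 0.71 ± 0.12 (edgeR, Benjamini-Hochberg adjusted p = 0.00627). Whether the low level of the pair in library I goes with depth or with what the number marks was not tested.

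The proportion of the rows asked whether mir-132 and mir-132b rose by different factors, and it needs no scaling between libraries. Of the counts of the pair, mir-132b held 25.2%, 25.3%, 24.6% and 25.9% in the 6-week libraries I to IV. It held 24.9%, 22.8%, 21.4% and 24.0% in the 26-week libraries I to IV. The ages overlapped through the 26-week library I, which lay above the 6-week library III. In each of the 4 pairs of libraries with the same number the proportion was lower, and the total higher, at 26 weeks. The proportion went with depth at 26 weeks, being highest in library I, with the lowest total, and lowest in II and III, with the highest. At 6 weeks it was lowest in III, with the highest total, but highest in IV rather than in I. Depth and age cannot be fully told apart here either.

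The mean proportion was 25.2 ± 0.529% at 6 weeks and 23.3 ± 1.48% at 26 weeks (SD, n = 4 per age), a difference of -1.97 percentage points that did not pass (exact two-sided permutation p = 0.0571). Leaving out 1 library gave -2.50 points without the 26-week library I (exact permutation p = 0.0286), -1.36 without the 26-week library III (p = 0.0857) and an exact permutation p of 0.114 without the 6-week library I, II or IV. Wilson 95% intervals were at most 0.701 points wide. Counting error alone gives a standard deviation of 0.167 points at 6 weeks and 0.119 points at 26 weeks, less than the spread between libraries.

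**Figure D3:**
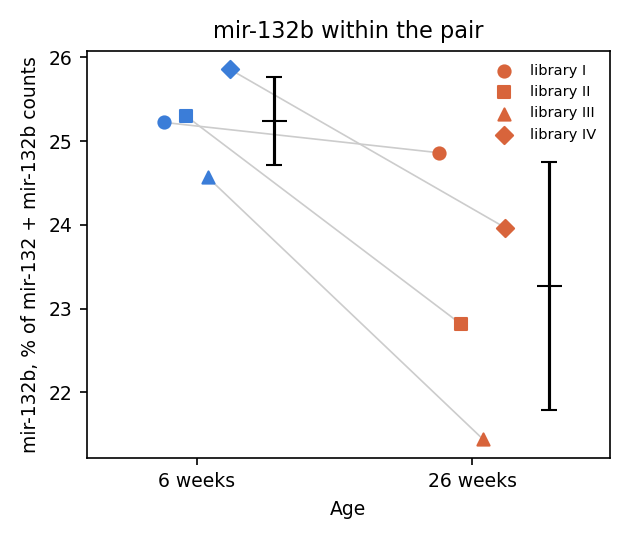
Counts of mir-132b as a percentage of the counts of mir-132 and mir-132b together, by age; the axis does not start at 0. Points are libraries, grey lines join libraries of the same number, and bars show the mean ± SD of 4 libraries. All 4 lines fall, from 24.6% to 25.9% at 6 weeks to 21.4% to 24.9% at 26 weeks.

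Ratios within a library asked whether the pair moved by more than other neuronal families. The references were mir-124, a neuronal family of vertebrates, mir-9, which acts in neural progenitors and neurons, and mir-128, a neuronal family linked to excitability. In these libraries mir-124 was the scarcest of them, at 3928 CPM on average at 6 weeks against 69261 for mir-9 and 61786 for mir-128. The log2 ratio of mir-132 to mir-9 was -2.49, -2.24, -2.18 and -2.25 in the 6-week libraries I to IV and -2.12, -1.27, -1.23 and -1.90 in the 26-week ones. The ages did not overlap, with the 26-week library I close to the younger libraries. At each age this ratio was lowest in library I, with the lowest total, and at 26 weeks it was highest in the deepest libraries, II and III. Depth, age and what the number I marks are thus not fully told apart by such ratios. The mean log2 ratio rose by 0.66, or 1.58-fold (exact two-sided permutation p = 0.0286, Benjamini-Hochberg adjusted over 6 ratios 0.0429). The log2 ratio of mir-132 to mir-128 was -2.24, -2.21, -2.001 and -2.05 at 6 weeks and -1.69, -1.24, -0.91 and -1.22 at 26 weeks. It rose by 0.86, or 1.82-fold, with all older libraries above all younger ones (exact permutation p = 0.0286, adjusted 0.0429). This ratio was also lowest in library I at each age. As a background, 38 of 211 other tested features had a ratio to mir-128 that was higher in all older libraries, and 24 of 211 had such a ratio to mir-9.

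The ratios of mir-132b rose as well, its mean log2 ratio by 0.50 to mir-9 and by 0.71 to mir-128 (each exact permutation p = 0.0286, adjusted 0.0429). They too were lowest in library I at each age. Its ratio to mir-9 ran from -4.06 to -3.77 at 6 weeks and from -3.71 to -3.03 at 26 weeks, so the gap between the ages was narrow. The adjusted 0.0429 was reached only because the ratios of both rows to mir-9 and mir-128 lay together at the lowest possible p. These ratios share references, and the rows may share reads, so they are not independent tests. Without any 1 of the 6-week libraries I to IV, the ratios of mir-132 to both references and of mir-132b to mir-9 no longer passed, nor did that of mir-132b to mir-128 without the 6-week library I or II (unadjusted exact permutation p = 0.0571 or 0.0857). The rises were then 0.43 to 0.90 on the log2 scale. The ages still did not overlap, which leaving out a library cannot change. With libraries paired by number, the ratios of both rows to mir-9 and mir-128 had an exact sign-flip p of 0.125 and did not pass. Against mir-124 the outcome differed. Of 211 other tested features, 1 had a ratio to mir-124 that was higher in all older libraries. For 84 of 211 that ratio was lower in all older libraries. The log2 ratio of mir-132 to mir-124 was 1.56, 1.92, 1.89 and 2.07 at 6 weeks and 1.4997, 1.97, 1.2998 and 1.87 at 26 weeks, and the ages overlapped. The difference was -0.20 for mir-132 (exact permutation p = 0.286, adjusted 0.286) and -0.35 for mir-132b (exact permutation p = 0.143, adjusted 0.171), so neither passed the unpaired test. Between libraries of the same number, the ratio to mir-124 was lower at 26 weeks in 3 of 4 pairs for mir-132 and in 4 of 4 pairs for mir-132b (exact sign-flip permutation p = 0.25 and 0.125, where 4 pairs cannot go below 0.125). Without the 26-week library III, whose mir-124 was at 10883 CPM against 6127 to 6411 CPM in the other older libraries, the differences were -0.078 and -0.18.

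**Figure D4:**
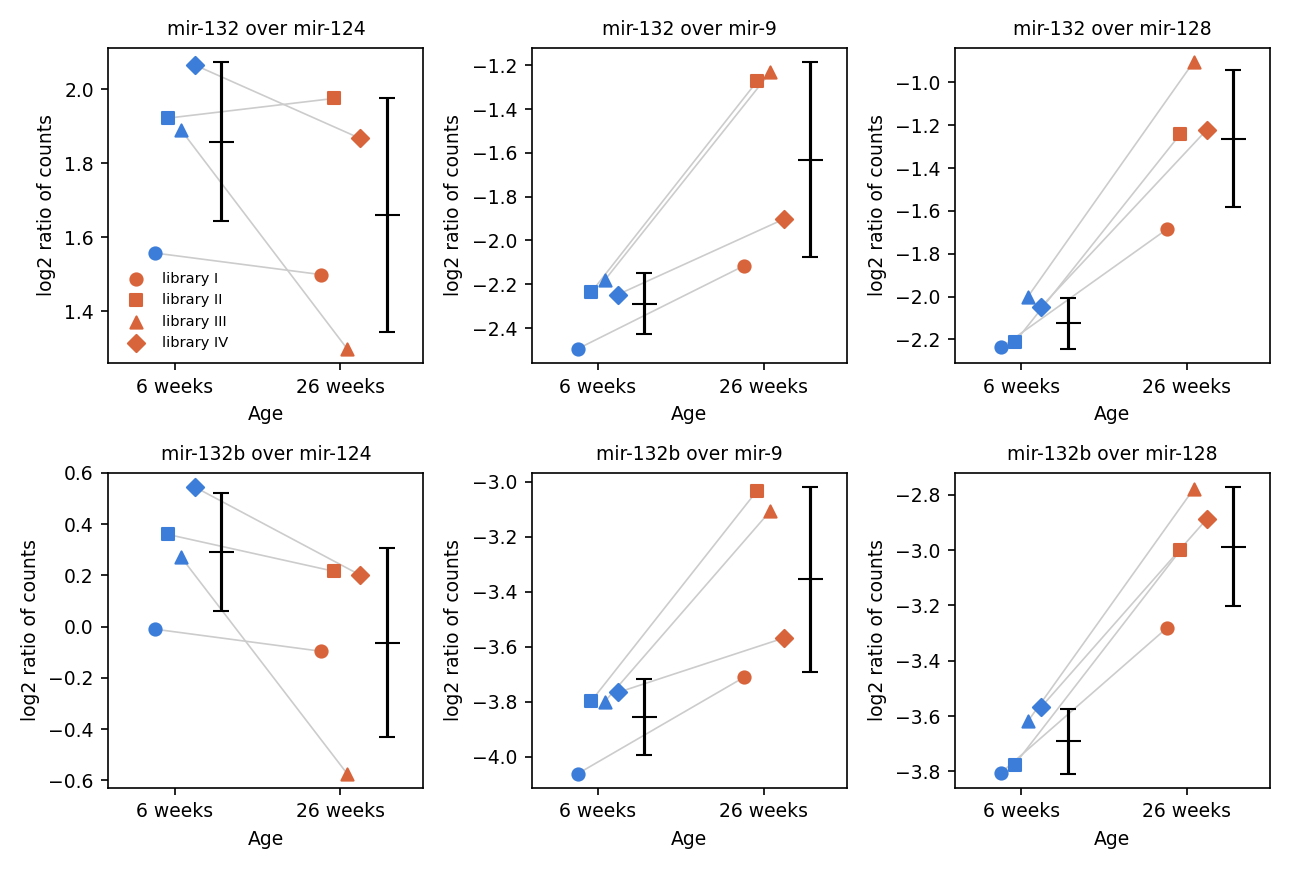
Log2 ratio of the counts of mir-132 (top) and mir-132b (bottom) to those of mir-124, mir-9 and mir-128 in the same library, by age; each panel has its own axis. Points are libraries, grey lines join libraries of the same number, and bars show the mean ± SD of 4 libraries. The ages do not overlap for mir-9 and mir-128 and overlap for mir-124.

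Across all other tested features, the ratio of mir-132 to the other feature was higher in all older than in all younger libraries for 71 of 211 features, and lower in all of them for 4. For mir-132b these counts were 63 and 9. Over all ordered pairs of tested features 9.51% of ratios were higher in this sense, against 33.6% for mir-132 and 29.9% for mir-132b, and the median feature had 4.5. By this count mir-132 ranked 22 and mir-132b 26 of the 212 features. Without the 26-week library I the counts were 121 and 104. Leaving out a library can only keep or raise such a count, for any feature. The share over all features was not recomputed, so this rise says nothing particular about the pair.

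Of 18 other neuron-enriched families listed besides the pair, 12 were tested, of which 2 were called higher and 0 lower by edgeR with Benjamini-Hochberg adjustment, while 3 of the 12 had an unadjusted p under 0.05. The count of calls is near the background, in which 10.4% of all tested features were called higher and 3.77% lower. Of all 212 tested features, 62 had an unadjusted p under 0.05, so the unadjusted count does not stand out either. The called families were mir-124 (log2 0.92 ± 0.21, adjusted p = 0.0167) and mir-139, a brain-enriched family (0.64 ± 0.15, adjusted p = 0.0179). The level of mir-124 went from 3928 ± 525 to 7454 ± 2290 CPM and that of mir-139 from 1392 ± 230 to 2177 ± 212 CPM (SD, n = 4 per age). The median log2 change of the 12 was 0.0026, beside -0.06 for all tested features. With total counts the call of both was lost, and the median of the 12 was -0.22, beside -0.29 for all features; with upper-quartile factors the call of both was lost as well.

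A list of 19 families reported to respond to neuronal activity or to act at synapses in mammals, also without the pair, had 16 tested members. Of these, 2 were called higher, mir-124 and mir-29, a family known for repressing collagen genes (log2 1.69 ± 0.15, edgeR, Benjamini-Hochberg adjusted p = 2.14e-04), and 0 lower, while 2 of the 16 had an unadjusted p under 0.05. The count of calls is again near the background of 10.4% called higher. The unadjusted count is to be read against 62 of all 212 tested features. The 2 lists share members, among them mir-9, mir-128, mir-137, mir-138 and the called mir-124, so their counts are not independent. Members without a call included mir-138, which limits spine growth in rodent neurons (log2 -0.24 ± 0.12), mir-137, a regulator of synaptic genes (-0.05 ± 0.13), mir-181 (0.0029 ± 0.12) and mir-188 (-0.55 ± 0.25). The median log2 change was -0.08, near the -0.06 of all tested features.

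The features most like mir-132 over the 8 libraries were mir-22, mir-23, mir-46, mir-132b and mir-26. Likeness was the root mean square difference of log2 CPM after each feature was centred on its own mean, which includes the difference between the ages. It was 0.092 for mir-22, 0.097 for mir-23, 0.11 for mir-46, 0.11 for mir-132b and 0.13 for mir-26, against a median of 0.56 over the 211 other tested features. For mir-132b the closest were mir-26 (0.080), mir-132 (0.11), mir-455 (0.13), mir-460 (0.14) and mir-22 (0.14), against a median of 0.49. Each row of the pair was thus among the 5 closest features of the other, at rank 4 and rank 2. All of these features share the libraries and their depth, and the libraries of an age are 4.

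The level of mir-22 was close to that of mir-132 at both ages, going from 14417 ± 1162 to 24156 ± 3868 CPM (SD, n = 4 per age). The neuronal references were farther, with mir-124 at rank 22 for mir-132 and rank 48 for mir-132b, and mir-9 at rank 71 and 55. The scarce mir-46, at 26.4 and 43.7 CPM on average, and mir-460, at 357 and 497 CPM, did not pass the test of age (edgeR, Benjamini-Hochberg adjusted p = 0.0569 and 0.0710).

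**Figure D5:**
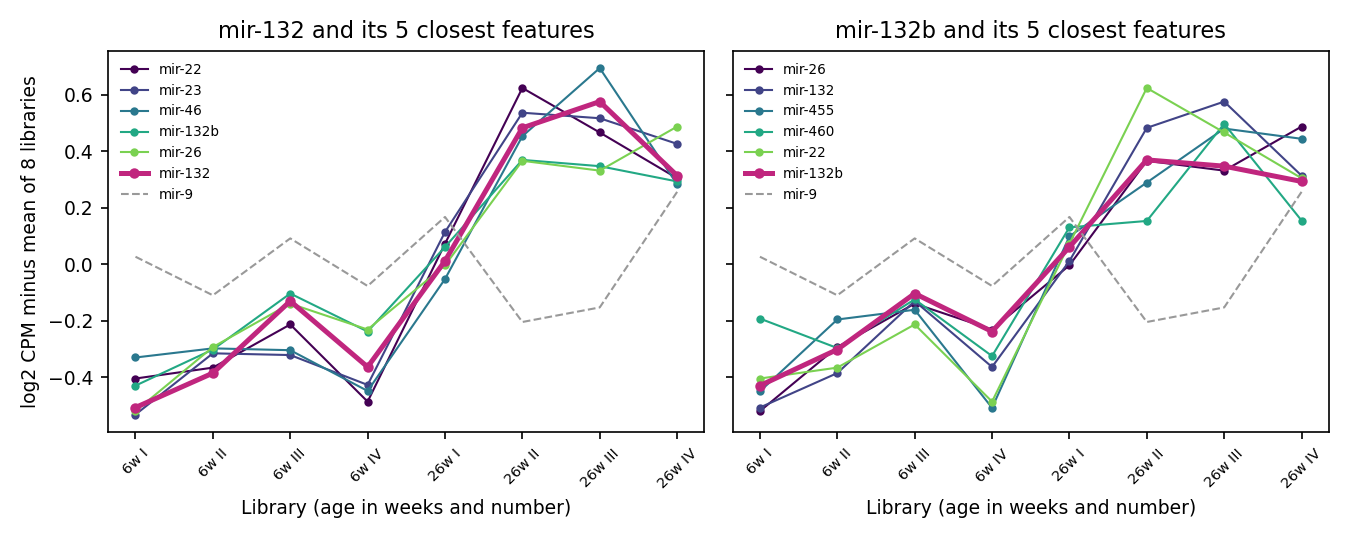
Log2 CPM minus its mean over the 8 libraries, for mir-132 (left) and mir-132b (right), the 5 tested features closest to each, and mir-9 for contrast. Lines join the libraries of the horizontal axis only to guide the eye. For each of the closest features all older libraries lie above all younger ones, with the 26-week library I the lowest of its age for both rows. The likeness used to choose these features includes the age difference, so their separation by age was nearly fixed in advance. Over all tested features, 14.2% were separated in this direction.

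In bulk tissue a change in the share of cells and a change in RNA per cell cannot be told apart. Markers of other cells are given beside the pair, and their calls are to be read against the 10.4% of all tested features called higher and the 3.77% called lower. The summed level of the oligodendrocyte families mir-219 and mir-338 was 8816 to 10345 CPM at 6 weeks and 18660 to 26726 CPM at 26 weeks, with both members called higher. The microglia and leucocyte families mir-142, mir-150, mir-155 and mir-223, of which 3 of 4 were called higher, summed to 245 to 269.9 and 371 to 534 CPM. The red blood cell families mir-144 and mir-451, of which 1 of 2 was called higher, summed to 753 to 973 and 1152 to 1311 CPM. Vessel wall families had 0 of 3 called and summed to 9020 to 13192 and 10661 to 18555 CPM, muscle families had 0 of 3 called and summed to 1107 to 1319 and 1175 to 1604 CPM, and the neuroendocrine families mir-375 and mir-7 had 0 of 2 called and summed to 1076 to 1635 and 696 to 2250.1 CPM. None of these markers was at 0 in any library, and their part in the change of mir-132 and mir-132b was not tested. The neuronal sum overlapped between the ages, with 1 of 6 families called higher. Most of this sum was mir-128, at 61786 CPM on average at 6 weeks and 55005 CPM at 26 weeks, so the sum mainly follows that family. The called family, mir-124, went from 3928 to 7454 CPM.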

How the data were processed

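Total brain RNA was made into libraries with Illumina's TruSeq kit for small RNA, per the labels. The submitters' processing notes name Trimmomatic 0.36, SAMtools 1.3.1-9, bcl2fastq 1.8.4 and BWA 0.7.12-r1039. The deposited values are raw counts, in whole numbers, for each miRNA family and predicted miRNA in each library, which the authors did not normalise. The genome build, the annotation, the counting rule and the handling of reads with several matches were not given in the sources used here. Columns were matched to samples by title.

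Counts were analysed with edgeR 4.0.16 in R 4.3.3 (quasi-likelihood test, TMM factors, filterByExpr, no covariate, two-sided, all 8 libraries, Benjamini-Hochberg over 212 features, threshold 0.05). The filter left out 112 features holding 0.00948% of counts. The SE was derived from the log2 fold change and the quasi-likelihood F statistic, as their quotient with F under a square root. Log2 CPM used a prior count of 2; ratios to every feature added 0.5 to counts. Shares and ratios were compared by exact permutation over 70 assignments (Python 3.11.15), counting absolute differences of means at least as large as that observed. The fit and the exact test were tested on simulated data. Alternatives used DESeq2 1.42.0 and limma 3.58.1 (voom).

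Deviations from the age means correlated between same-numbered libraries by 0.287 to 0.528 across features (at most 0.234 between different numbers), above the limit of 0.1, so the numbers were taken to pair the libraries; what a number marks is not stated. Named features were the pair, mir-124, mir-9, mir-128, the 5 closest features of each row and called members of the 2 lists. List members without a call, mir-716 and mir-158 were named as examples after their values were seen. The rows and lists were chosen with earlier results of these data known.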

Additional observations from a re-analysis of the deposited data

Results flagged for a closer look

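Among 44 groups of 4 libraries checked for a value set apart from the rest (Dixon's 95% critical value, 0.829), 4 were flagged, and chance gives about 1 in 20. The share of mir-132 was 1.67% in the 6-week library III and 1.47% to 1.503% in the other 6-week libraries. The log2 ratio of mir-132b to mir-9 was -4.06 in the 6-week library I and -3.80 to -3.77 in the others of that age. The log2 CPM of mir-124 was 13.41 in the 26-week library III and 12.58 to 12.65 in the other older libraries. The log2 CPM of mir-460 was 9.21 in the 26-week library III and 8.85 to 8.87 in the others.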

How the results depend on the processing

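All alternatives kept the direction of each change of the pair. With the replicate block, the log2 changes were 0.69 (mir-132), 0.54 (mir-132b) and 0.69 (sum) (edgeR, Benjamini-Hochberg adjusted p = 0.00433, 0.00801 and 0.00248), so the pairing changed no call of the pair, while called features went from 30 to 59. The calls of mir-132, mir-132b and their sum were lost with upper-quartile factors (log2 0.54, 0.37 and 0.52), with the log2 total as a covariate (0.36, 0.32 and 0.39) and without the 26-week libraries II and III (0.60, 0.54 and 0.57; chosen after the data were seen); the cause was not tested. Called features were 4 with that covariate, 15 without these 2 libraries and 50 without both libraries numbered I; the neuron-enriched list then had 0, 1 and 2 called members and the activity-linked list 1, 2 and 2. With upper-quartile factors and with total counts the lists had 0 and 1. Higher and lower calls were 22 and 8 with TMM, 15 and 11 with upper-quartile factors, 15 and 12 with total counts, 35 and 24 with the block. Leaving out 1 library gave 23 to 47 called features (47 without the 26-week library I), log2 changes of 0.65 to 0.82 (mir-132), 0.49 to 0.66 (mir-132b) and 0.64 to 0.79 (sum), with no call lost. It gave a difference of -2.50 to -1.36 points in the proportion of mir-132b (exact permutation p from 0.0286 to 0.114), and differences in log2 ratio to mir-9 of 0.53 to 0.82 (mir-132) and 0.39 to 0.62 (mir-132b), to mir-128 of 0.74 to 1.002 and 0.64 to 0.80, these ratios with exact permutation p up to 0.0857, and 74 to 121 and 65 to 104 higher ratios to other features. The counts of higher ratios to other features can only stay or rise when a library is left out. With medians in place of means the ratios to mir-9 (0.65 and 0.46) and mir-128 (0.90 and 0.75) had an exact permutation p of 0.0571. With libraries paired by number, the exact sign-flip test gave p = 0.125 for the share of each row, for the proportion of mir-132b and for the ratios to mir-9 and mir-128. None of these passed when paired, but the exact sign-flip test of 4 pairs cannot go below 0.125. The exact permutation test of 3 against 3 libraries cannot go below 0.1.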
